A study of Mus musculus with 244 samples.

Results

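The DNA methylation machinery of the oocyte is described here through 7 genes that were chosen by name: the DNA methyltransferases Dnmt1, Dnmt3a and Dnmt3b, the cofactor Dnmt3l, the maintenance factor Uhrf1, the protective factor Dppa3 (Stella) and the dioxygenase Tet3. All 7 are among the 25122 named genes of the count table. The cells were single oocytes and single somatic cells taken by hand from staged follicles of untreated CD-1 mice at postnatal day 6, with 1 SMART-Seq2 library per cell. The 59 oocytes came from 13 primordial, 19 transitioning (primordial to primary), 20 primary and 7 secondary follicles. Of the somatic cells 40 came from primordial, 47 from transitioning, 56 from primary and 42 from secondary follicles. The labels name no follicle, so several somatic cells may come from the same one. Ovaries were pooled and the labels name no animal or collection for a cell, so the cells of 1 stage and plate count as 1 sample. No test between groups was possible and no p-value is given. Intervals are 95% intervals for counting error only and do not cover PCR copies or differences between animals.

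Primordial follicle oocytes hold a largely unmethylated genome, and methylation is laid down again while the oocyte grows. DNMT3A with its catalytically inactive partner DNMT3L is the known de novo enzyme of the mouse oocyte, and DNMT3B is known mainly from the embryo. DNMT1 copies methylation after replication, guided by UHRF1, which reads hemimethylated CpG sites. In the oocyte DPPA3 is known to keep UHRF1 out of the nucleus, and after fertilization DPPA3 and TET3, which oxidizes 5-methylcytosine, act on the parental genomes in opposite ways.

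Which cells carried a value decided what could be compared. For any plate the count table either fills a gene's row across its cells or leaves it blank, and each of the 7 genes is listed on 1 of 6 plates only. Dnmt1 is listed on plate 4 (15 transitioning oocytes, 16 transitioning somatic cells). Uhrf1 and Dppa3 are listed on plate 1 (13 oocytes, 37 somatic cells), and Tet3 and Dnmt3b on plate 2 (8 oocytes, 32 somatic cells). Dnmt3l is listed on plate 6 (13 oocytes, 12 somatic cells). Dnmt3a is listed on plate 3, which holds 22 transitioning somatic cells and no oocyte, so 6 of the 7 genes have a value in oocytes and Dnmt3a has none. A blank is a missing value, not a zero, and no level was set against one from another plate. Listing followed the number of annotated transcripts of a gene. Of 3451 genes with 1 transcript in GENCODE release M21, 99.7% are on every plate, whereas of 6471 genes with 6 or more transcripts 14.9% are on every plate and 4077 are on 1 plate. Dnmt1 has 7 annotated transcripts, Dnmt3a 18, Dnmt3b 12, Dnmt3l 8, Uhrf1 7, Dppa3 2 and Tet3 5. Whether a value covers all transcripts of its gene is not given in the sources used here.

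On GRCm38 the genes lie on separate loci. Dnmt1 is at chr9:20907209-20959888 (minus strand), Dnmt3a at chr12:3806007-3914443 (plus), Dnmt3b at chr2:153649450-153687730 (plus), Dnmt3l at chr10:78041947-78063622 (plus), Uhrf1 at chr17:56303321-56323486 (plus), Dppa3 at chr6:122626410-122630272 (plus) and Tet3 at chr6:83362373-83459084 (minus). All are protein coding. Some reads may not be theirs alone. Of the distinct 50-base stretches of their annotated transcripts, 16.5% for Dppa3, 15.4% for Uhrf1 and 9.81% for Dnmt3b also occur in transcripts of other genes (Dppa3-ps, Gm15620 and Gm47576 for Dppa3, Gm5648 and Gm15953 for Uhrf1, Dnmt3c for Dnmt3b), none of which the table lists. For the other 4 genes the share is at most 0.467%.

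Dnmt1 and Dnmt3l are known to start from an upstream promoter in the mouse oocyte, which gives the shorter oocyte form of DNMT1 and an oocyte transcript of Dnmt3l. The counts are per gene and cannot tell the starts apart. The windows at these starts are shown because they place the oocyte starts beside the downstream ones, and because CpG, the dinucleotide the enzymes act on, is sparse in the upstream window of Dnmt1. Each is a RefSeq promoter window on GRCm38 (250 bases before the start and 50 after), written 5′ to 3′ on the strand of the gene, with CG in capitals.
Dnmt1 upstream start, chr9:20959839-20960138: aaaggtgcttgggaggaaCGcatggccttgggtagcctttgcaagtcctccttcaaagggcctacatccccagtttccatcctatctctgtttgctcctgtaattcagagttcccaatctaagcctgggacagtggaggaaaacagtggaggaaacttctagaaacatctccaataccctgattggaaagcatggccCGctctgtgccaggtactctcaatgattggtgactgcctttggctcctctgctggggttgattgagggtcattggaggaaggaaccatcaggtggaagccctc
Dnmt1 downstream start, chr9:20952574-20952873: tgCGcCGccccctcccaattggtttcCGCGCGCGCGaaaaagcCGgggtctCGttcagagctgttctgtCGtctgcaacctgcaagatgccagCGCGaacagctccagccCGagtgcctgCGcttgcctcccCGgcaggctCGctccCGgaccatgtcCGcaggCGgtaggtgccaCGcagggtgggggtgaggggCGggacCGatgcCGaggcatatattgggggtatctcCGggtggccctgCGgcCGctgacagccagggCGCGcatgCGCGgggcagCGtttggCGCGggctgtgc
Dnmt3l upstream start, chr10:78042037-78042336: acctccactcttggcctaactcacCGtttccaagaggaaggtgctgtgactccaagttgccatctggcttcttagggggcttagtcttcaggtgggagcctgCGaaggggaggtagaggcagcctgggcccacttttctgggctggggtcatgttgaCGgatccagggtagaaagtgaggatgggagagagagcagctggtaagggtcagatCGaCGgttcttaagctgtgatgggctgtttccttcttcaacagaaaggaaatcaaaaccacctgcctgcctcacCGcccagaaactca
Dnmt3l second start, chr10:78049592-78049891: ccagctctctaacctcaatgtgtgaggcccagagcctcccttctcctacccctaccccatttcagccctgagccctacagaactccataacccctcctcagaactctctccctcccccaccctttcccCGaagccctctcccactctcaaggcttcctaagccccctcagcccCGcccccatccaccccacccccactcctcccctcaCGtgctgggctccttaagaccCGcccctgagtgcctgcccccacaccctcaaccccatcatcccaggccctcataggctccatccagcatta

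The upstream window of Dnmt1 holds 2 CpG and the downstream one, whose start lies 7265 bases further along the gene, holds 33. Of 32851 such windows in the table, 85.9% hold at least 2 CpG and 8.56% hold at least 33, and the median is 7. The upstream and second windows of Dnmt3l hold 6 and 4 CpG, and their starts are 7555 bases apart. The upstream window of Dnmt3l also lies within the annotated gene Aire. Other RefSeq starts of both genes are not shown, and windows were found for 6 of the 7 genes.

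The cells were checked against marker genes, and some oocytes stand apart. The libraries held between 5150 and 801258 counts, with a median of 96024 in oocytes and 72279 in somatic cells. Levels are counts per 1000000 counts of the cell or cell group (CPM). On the plates that carry the 7 genes, summed granulosa markers reached between 5591 and 38117 CPM in somatic groups of at least 5 cells, and between 0 and 120 CPM in the groups of oocytes. Defining oocyte markers (among them Bmp15, Dazl, Sohlh1 and Ooep) had reads in the oocytes of every plate that holds oocytes. Stroma markers reached 3228 CPM in the primordial somatic cells of plate 1 and 7720 CPM in the primary somatic cells of plate 2. Of the plate 1 oocytes, 3 (primordial 5, primary 3 and primary 4) have at most 247 genes in the deposited cell metadata but 2025 to 2485 genes with counts in the table. They were kept. They hold 8352, 5440 and 5453 counts in that order, so ratios of summed counts could hardly depend on them. Without them the ratios for Uhrf1 and Dppa3 moved by at most 0.01 on the log2 scale. Their own levels rest on few reads, with 15, 8 and 5 counts of Uhrf1. Primordial 5 and primary 3 have the highest Dppa3 level of their groups. A second plate code in the metadata, whose meaning is not stated, differs between some oocytes and the somatic cells of plates 1, 2 and 4. Values within 1 code are given for Dnmt1, Tet3, Uhrf1 and Dppa3. For Dnmt3b and the pathway genes of these plates no ratio within 1 code was formed, so code and cell type were not separated in their ratios.

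Dnmt1, the maintenance methyltransferase, was among the most abundant of the messages that plate 4 lists in the transitioning oocytes. Its 69621 counts were 2.12% of the counts listed for the 15 oocytes. Per kilobase of exon it ranked 6 of 10830 annotated genes there, against rank 539 in the somatic cells. The plate lists 15866 of 25122 genes. Oocyte genes such as Zp2, Zp3 and Gdf9 are blank on it and enter neither the share nor the rank. All 15 oocytes had reads, with a lowest value of 1459, a median of 21503 and a highest of 73478 CPM. Of the 16 somatic cells 12 had reads, with a median of 628 and a highest of 2682 CPM. The groups overlapped through 1 oocyte, number 12, which lay below 2 of the somatic cells.

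The summed Dnmt1 level was 21215 CPM in oocytes and 711 CPM in somatic cells, a log2 ratio of 4.90 (4.84 to 4.96), or 29.8-fold. On this plate 26.9% of 4931 genes were at least 2-fold higher in oocytes and the median gene had a log2 ratio of -1.42, and 93.5% of genes had a lower ratio than Dnmt1. The somatic cells and 5 of the oocytes share a plate code. Those 5 oocytes had 20007, 20562, 21503, 23404 and 40421 CPM, above every somatic cell, and a log2 ratio of 5.13. The lowest 4 oocytes, between 1459 and 6917 CPM, carry other codes, and what the codes contribute was not tested.

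The somatic level of Dnmt1 was 3.35% of that of the oocytes. Of the 6 oocyte markers listed on plate 4, 5 had reads in somatic cells, at 0.0690% to 1.43% of their oocyte level, and Bmp15 was at 0. The summed marker level was between 0 and 1803 CPM in single somatic cells, against 59287 to 195203 CPM in single oocytes. The part of oocyte RNA in the somatic Dnmt1 reads was not tested.

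**Figure D1:**
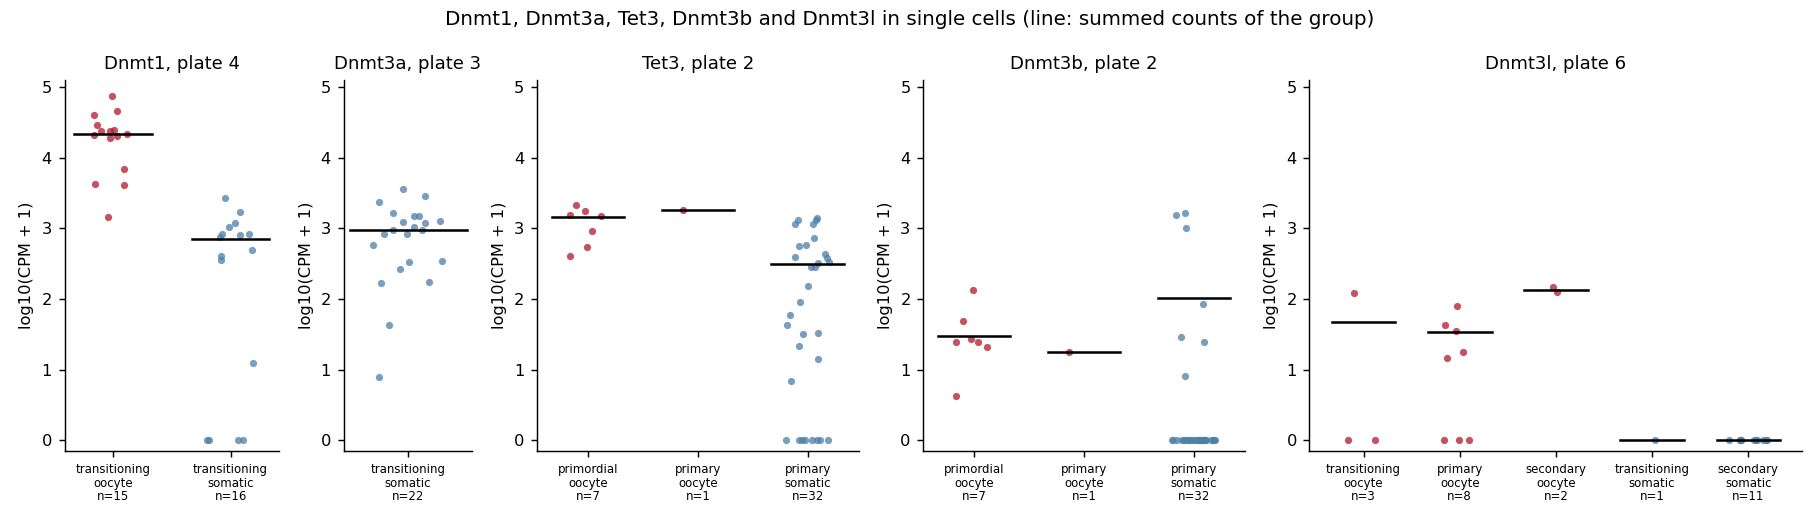
Level of Dnmt1, Dnmt3a, Tet3, Dnmt3b and Dnmt3l in single cells of the plate that lists each gene, as log10(CPM + 1); each point is 1 cell (oocytes red, somatic cells blue) and the black line is the level of the summed counts of a group. Dnmt1 lies between 1459 and 73478 CPM in oocytes and at or below 2682 CPM in somatic cells, and Dnmt3l has reads in oocytes only.

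Tet3 was also higher in oocytes, with overlap between single cells. The 7 primordial oocytes of plate 2 had 399, 537, 905, 1514, 1539, 1737 and 2126 CPM, and the 1 primary oocyte had 1817 CPM. In the 32 somatic cells, all from primary follicles, 24 had reads, with a median of 121.3 and a highest value of 1391 CPM. The 3 lowest primordial oocytes lay within the range of the somatic cells and the other 4 above it.

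Summed over cells, Tet3 stood at 1425 CPM in primordial oocytes and 308 CPM in somatic cells, a log2 ratio of 2.21 (2.11 to 2.31). Of 5225 genes of this plate 23.6% were at least 2-fold higher in the oocytes, and the median gene had a log2 ratio of -2.35. The primordial oocytes carry another plate code and another stage than every somatic cell, so code, stage and cell type cannot be told apart in this ratio. The primary oocyte shares code and stage with the somatic cells, and its 1817 CPM lay above all 32 of them. The somatic level of Tet3 was 21.6% of that of the primordial oocytes. The 4 listed oocyte markers had 0.0739% to 1.404% of their oocyte level in the same somatic cells. The part of oocyte RNA in the somatic Tet3 reads was not tested.

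Dnmt3b, a de novo methyltransferase, had few reads in every oocyte and many in a few somatic cells. The 7 primordial oocytes had 3.30, 20.2, 23.8, 23.9, 26.6, 48.3 and 131.3 CPM, 87.5 counts in all, and the primary oocyte had 16.8 CPM. Among the somatic cells 25 of 32 had no reads, 4 had between 7.27 and 83.3 CPM, and 3 had 1024, 1537 and 1641 CPM. These 3 cells held the bulk of the 358 somatic counts. Their granulosa markers summed to 45064, 27887 and 20474 CPM and their stroma markers to 1229, 0 and 1600 CPM, in the same order.

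The summed level of Dnmt3b was 28.9 CPM in primordial oocytes and 102.5 CPM in somatic cells, a log2 ratio of -1.82 (-2.17 to -1.47). As for Tet3, code, stage and cell type cannot be told apart in this ratio. At least 2-fold lower levels in oocytes were found for 61.2% of all genes of the plate, so Dnmt3b lay near the middle of the distribution: 54.5% of genes had a lower ratio, and relative to the median gene its ratio was 0.53. With TMM or median-of-ratios factors it was -0.74 or -0.53 and no longer 2-fold. When cells were thinned to 12000 counts, reads were left in 2 of 7 primordial oocytes and 5 of 31 somatic cells. Among the somatic cells 6 had reads of both genes, 18 of Tet3 alone, 1 of Dnmt3b alone and 7 of neither.

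Dnmt3l, the cofactor of de novo methylation, was found in oocytes and in none of the somatic cells of plate 6. Of the 3 transitioning oocytes 1 had reads (119.3 CPM). Of the 8 primary oocytes 5 had reads, at 13.7, 16.96, 34.7, 42.5 and 78.8 CPM. Both secondary oocytes had reads, at 125.05 and 145.2 CPM. The 12 somatic cells, 11 from secondary follicles and 1 from a transitioning follicle, had 0 counts of 454947. The exact Poisson upper limit of that is 8.11 CPM, and a floor of 3 counts stands at 6.59 CPM. For 0 of 12 cells the exact binomial upper limit is 26.5%.

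These are few reads: 7 counts at the transitioning, 20 at the primary and 18 at the secondary stage. Against the floor of 3 counts over the somatic group, Dnmt3l was 7.00-fold higher in transitioning and 5.00-fold higher in primary oocytes. On this plate 24.3% and 22.5% of genes were at least 2-fold higher in oocytes of those stages. The lower ends of the 95% counting intervals, from the split of the counts without the floor, were 4.32-fold and 3.70-fold. As 11 of the somatic cells came from secondary follicles, stage and cell type cannot be told apart in these ratios. The transitioning ratio rests on 1 oocyte, and without that oocyte no ratio could be formed. Without the cell that held 11 of the 20 counts, the primary oocytes were at a log2 ratio of 1.55. The summed levels by stage were 46.2 CPM (18.6 to 95.1) at the transitioning stage, 32.97 CPM (20.1 to 50.9) at the primary and 134.4 CPM (79.6 to 212.4) at the secondary stage. The intervals of the transitioning and primary stages overlap, with a log2 ratio of -0.49 (-1.79 to 0.999) of primary over transitioning oocytes, and 9.81% and 13.2% of genes were at least 2-fold higher and lower in that comparison. The secondary oocytes had a higher interval than the primary ones, on 2 cells, and no ratio was formed for them. At 12000 counts per cell, reads were left in 1 of 3, 2 of 8 and 1 of 2 oocytes of these stages.

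Oocyte messages were present at a low level in the somatic cells of plate 6. All 8 oocyte markers listed there had reads in somatic cells, and their sum was between 857 and 9000 CPM in the single secondary somatic cells, against 77988 to 111888 CPM in single oocytes. Aire, within which the upstream Dnmt3l start lies on the opposite strand, is listed on plate 2 only, where Dnmt3l is not. Chosen after its values were seen, it had reads in 5 of 7 primordial oocytes (37.7 CPM summed), 5 counts in the primary oocyte and 0 counts in 32 somatic cells. SMART-Seq2 does not mark strand, so reads from Aire and from Dnmt3l cannot be told apart where their exons overlap.

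Dnmt3a, the de novo methyltransferase of the oocyte, was measured here in somatic cells alone. All 22 transitioning somatic cells of plate 3 had reads, with a lowest value of 6.90, a median of 939 and a highest of 3613 CPM. The summed level was 954 CPM (920 to 989), and 20 of 22 cells kept reads at 12000 counts per cell. The 7 listed oocyte markers all had reads in these cells, with a sum between 0 and 6434 CPM per cell and a median of 1480 CPM. Without oocytes on the plate, the part of this in the Dnmt3a level was not tested.

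Uhrf1, which brings DNMT1 to hemimethylated DNA, and Dppa3, which acts on UHRF1 in the oocyte, share plate 1 and can be read in the same cells. Both had reads in all 13 oocytes. Uhrf1 stood at 1175, 1796, 2363, 2705 and 4605 CPM in the primordial oocytes, at 3668 CPM in the transitioning oocyte and at 665, 917, 1300, 1471, 2999, 3572 and 7194 CPM in the primary oocytes. Dppa3 stood at 2587, 3095, 4521, 4803 and 7423 CPM in the primordial oocytes, at 2269 CPM in the transitioning oocyte and at 3413, 5318, 5577, 5606, 6290, 6372 and 6617 CPM in the primary oocytes. The stages overlapped for both genes, and Uhrf1 varied more between primary oocytes than Dppa3 did. Per kilobase of exon, among the 13392 annotated genes that plate 1 lists, Dppa3 ranked 7 in primordial and 5 in primary oocytes, and Uhrf1 ranked 51 and 20.

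Between stages no call of 2-fold was made. The summed Uhrf1 level was 5525 CPM in primary and 3105 CPM in primordial oocytes, a log2 ratio of 0.83 (0.78 to 0.88), while 15.2% of 6173 genes were at least 2-fold higher and 34.1% at least 2-fold lower in primary oocytes and the median gene was at -0.56. This ratio rests on 1 cell. Primary oocyte 1 held 88.3% of the Uhrf1 counts of its group, and without it the ratio was -0.63. Within the plate code shared by 3 primordial and 6 primary oocytes it was -0.71, and between the 2 oocytes of the other shared code it was 2.61. It was 2.19 without 3 primordial oocytes (2, 3 and 4) whose deposited time code is that of secondary follicles, so no direction can be given. Dppa3 differed less between the stages, with 4223 CPM in primary and 4055 CPM in primordial oocytes and a log2 ratio of 0.06 (0.01 to 0.11). It was 0.51 and 0.40 within the same codes, and with totals over the genes listed on every plate it was -0.50. Across the 13 oocytes the levels of Uhrf1 and Dppa3 had a Spearman's rho of -0.23 (cells of 1 plate, of 3 stages).

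**Figure D2:**
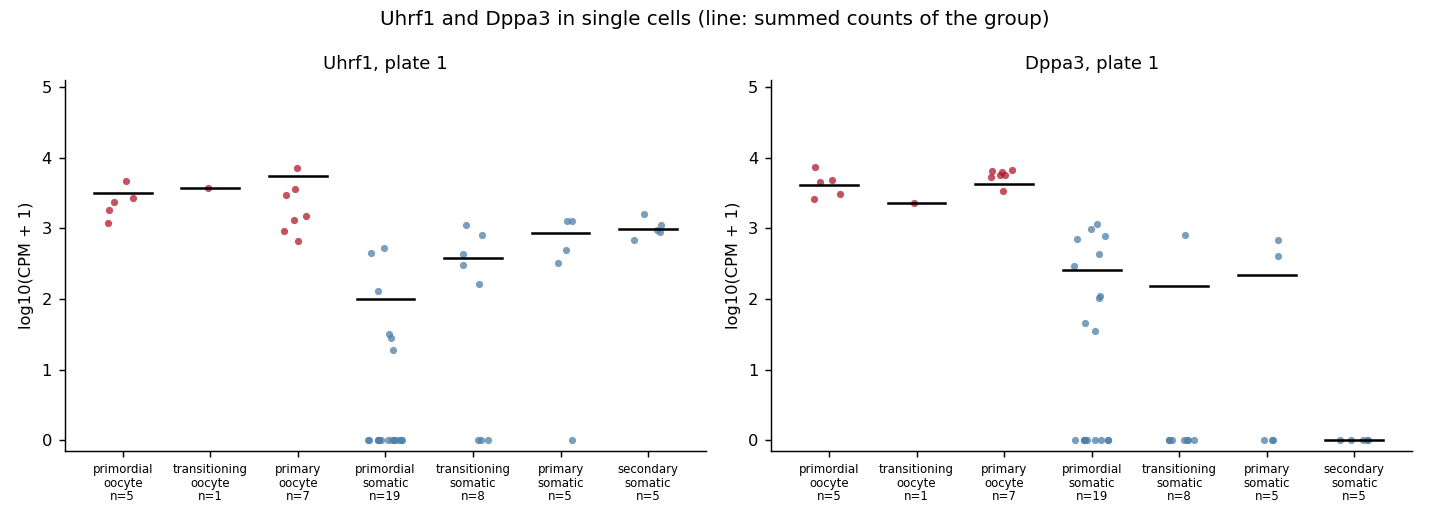
Uhrf1 and Dppa3 in the single cells of plate 1, as log10(CPM + 1), by cell type and follicle stage; each point is 1 cell and the black line is the level of the summed counts. All 13 oocytes (red) carry both genes, Uhrf1 in somatic cells (blue) has its lowest summed level, 97.6 CPM, at the primordial stage and its highest, 973 CPM, at the secondary stage, and Dppa3 has no reads in secondary somatic cells.

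Both genes were higher in oocytes than in the 37 somatic cells of the plate. Uhrf1 stood at 3105 CPM in primordial oocytes and 5525 CPM in primary oocytes, against 579 CPM in somatic cells, with log2 ratios of 2.42 (2.36 to 2.49) and 3.25 (3.19 to 3.32), the second of which was 1.79 without primary oocyte 1. The median gene was at -0.35 and -0.86. All 37 somatic cells carry plate code 1, as do 3 of the 13 oocytes. Within that code the Uhrf1 ratio was 1.02 for the 1 primordial oocyte and 3.63 for the 1 primary oocyte. Without the cells of conflicting labels, 3 primordial oocytes among them, the first was 1.01. Both low values rest mainly on primordial oocyte 1, and are about 2-fold against somatic cells of all stages. The summed somatic level of Uhrf1 was 97.6 CPM at the primordial and 973 CPM at the secondary stage. With primordial somatic cells only, the ratio of the 5 primordial oocytes was 4.99. Dppa3 was at 4055 and 4223 CPM in the same oocytes, against 158.2 CPM in somatic cells, with log2 ratios of 4.68 (4.58 to 4.78) and 4.74 (4.63 to 4.85). For Dppa3 the ratios within the code were 4.03 and 4.43. The background is 30.1% of genes at least 2-fold higher in primordial and 24.3% in primary oocytes. Dppa3 lay above 94% and 94.8% of all genes in the 2 comparisons, and Uhrf1 above 83.7% and 89.4%. Dppa3 is 1 of the oocyte markers by which the authors scored cells and removed somatic cells high in oocyte genes, so its contrast and that filter cannot be told apart. Every oocyte had more Dppa3 than every somatic cell, whose highest value was 1148 CPM. For Uhrf1, 5 of the 13 oocytes lay below the highest somatic cell (1591 CPM).

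**Figure D3:**
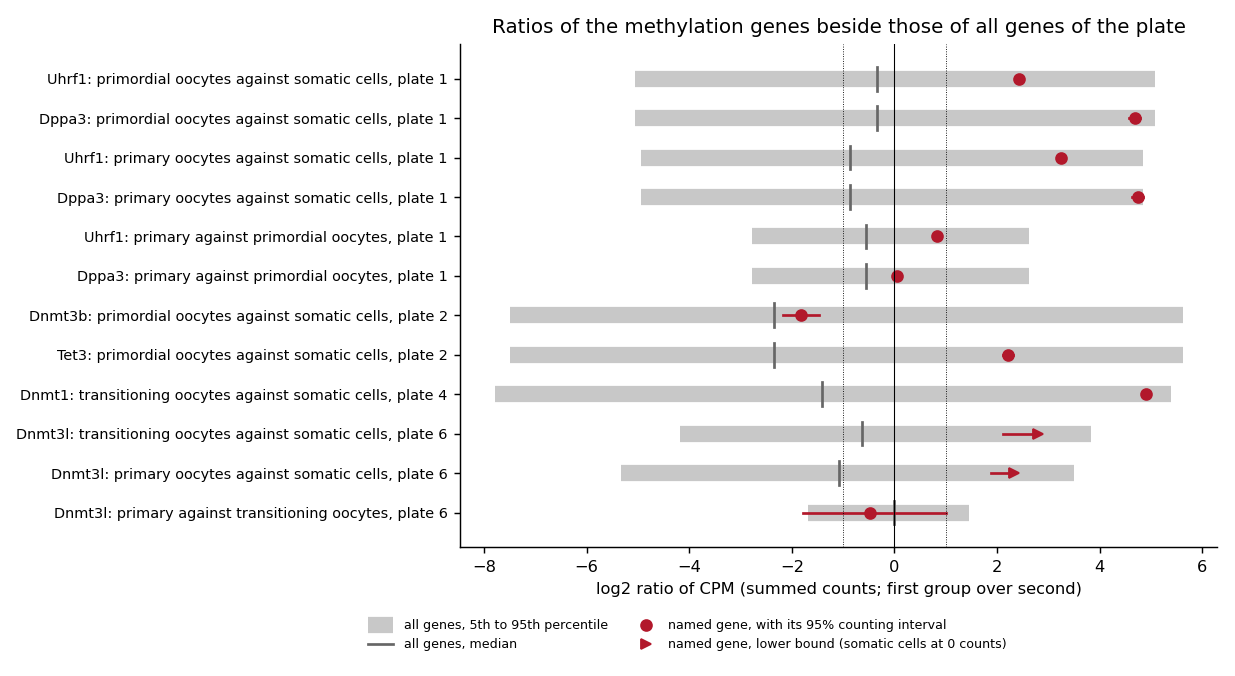
Log2 ratio of summed CPM for each gene and comparison of oocytes (red points, with 95% counting intervals; arrowheads are lower bounds where somatic cells had 0 counts), beside all genes of the same plate (grey bar, 5th to 95th percentile; dark line, median). Dnmt1 (4.90) and Dppa3 (4.68 and 4.74) lie toward the upper end of their bars, and Dnmt3b (-1.82) lies near the median gene of its plate.

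In somatic cells Uhrf1 was higher at later follicle stages. Reads were found in 6 of 19 primordial, 5 of 8 transitioning, 4 of 5 primary and 5 of 5 secondary somatic cells. The summed levels were 97.6 CPM (82.6 to 114.6), 379 CPM (343 to 417), 866 CPM (817 to 918) and 973 CPM (923 to 1025) in that order. The highest primordial somatic cell, at 523 CPM, lay below the lowest secondary one, at 686 CPM. The other values of the secondary cells were 889, 959, 1112 and 1591 CPM. Against primordial somatic cells the log2 ratio was 1.95 (1.68 to 2.24) for transitioning, 3.15 (2.90 to 3.41) for primary and 3.32 (3.07 to 3.57) for secondary ones, where 28.2%, 32% and 33.2% of all genes were at least 2-fold higher. Against transitioning somatic cells it was 1.19 (1.03 to 1.36) for primary and 1.36 (1.202 to 1.525) for secondary ones, beside 42.2% and 43.3% of all genes, and the first fell below 2-fold (0.88) without its top cell. Between secondary and primary somatic cells it was 0.17 (0.05 to 0.28). All 37 cells carry the same plate code.

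Cell cycle genes and oocyte markers were read in the same somatic cells. The 9 listed cell cycle genes, among them Mki67, Top2a and members of the MCM helicase, summed to 1110, 2996, 4142 and 8900 CPM in somatic cells of the 4 stages from primordial to secondary. Across the 37 cells their sum had a Spearman's rho of 0.62 with Uhrf1 and of -0.17 with Dppa3. Oocyte markers had a rho of -0.11 with Uhrf1 and of 0.45 with Dppa3. These cells share a plate and differ in depth and stage, and no p was computed. In the secondary somatic cells the 9 oocyte markers summed to 0.697 CPM, 8 of them (all but Sohlh1) were at 0, and Uhrf1 was at 973 CPM.

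**Figure D4:**
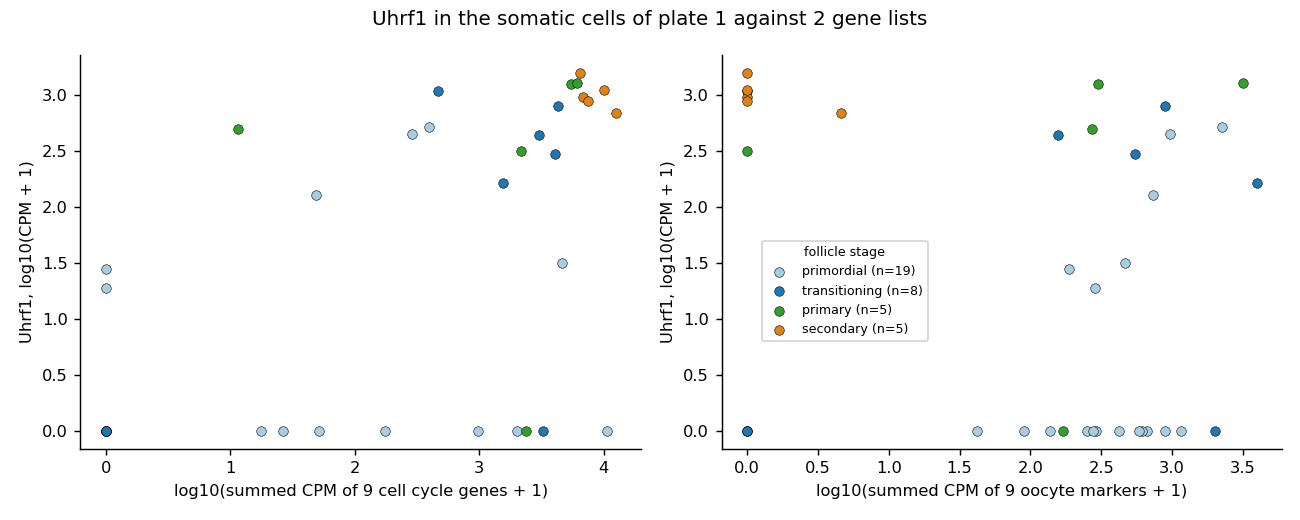
Uhrf1 in each of the 37 somatic cells of plate 1 against the summed level of 9 cell cycle genes (left) and of 9 oocyte markers (right), both axes as log10(CPM + 1), coloured by follicle stage. The 5 secondary cells are high in Uhrf1 (686 to 1591 CPM) and in cell cycle genes and have almost no oocyte marker reads.

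Dppa3 in somatic cells had no such order, and no reads at the secondary stage. Reads were found in 10 of 19 primordial, 1 of 8 transitioning, 2 of 5 primary and 0 of 5 secondary somatic cells, with summed levels of 256.2, 153.8, 219.2 and 0 CPM. The 1 transitioning cell had 812 CPM and the 2 primary cells 401 and 673 CPM. The 0 counts of the secondary cells have an exact Poisson upper limit of 2.57 CPM, and the floor of 3 counts stands at 2.09 CPM. Against that floor their log2 ratio was at most -6.94, -6.20 and -6.71 over primordial, transitioning and primary somatic cells, where 42%, 33.8% and 30.2% of all genes were at least 2-fold lower. Each of these ratios rests on few cells. Without the cell richest in Dppa3 the third was -4.24 and the second could not be formed, since 1 cell held all reads of the transitioning group. With cells thinned to 12000 counts the ratios at the floor were -2.04, -1.20 and -2.12. The exact binomial upper limit for 0 of 5 cells is 52.2%. All 9 oocyte markers had reads in the primordial somatic cells, 6 in the transitioning, 6 in the primary and 1 in the secondary ones. All 13 somatic cells with Dppa3 reads had oocyte marker reads, with a median sum of 580 CPM, and 15 of the 24 cells without Dppa3 reads did, with a median of 122.05 CPM. The somatic level of Dppa3 was 3.90% of that of primordial oocytes, within the range of the 9 markers (0.0777% to 50.6%). The part of oocyte RNA in the somatic Dppa3 reads was not tested.

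The genes that work with these 7 were taken from a list of 47 names, in which Dcaf1 and Vprbp name the same gene. Of the 47 names 45 are in the table (Vprbp but not Dcaf1), 38 of them on a plate with oocytes. The count of those at least 2-fold apart was mixed in direction. On plate 1, 5 of 15 were higher and 4 lower in primordial oocytes than in somatic cells (all genes: 30.1% and 40.5%), with a median log2 ratio of 0.27 against -0.35 for all genes. In primary oocytes 4 were higher and 6 lower (24.3% and 47.6%), with a median of -0.62 against -0.86. On plate 4, 1 of 11 was higher and 4 lower in transitioning oocytes (26.9% and 54.2%). On plate 2, 0 of 5 were higher and 1 was lower (23.6% and 61.2%). On plate 5, 0 of 13 were higher and 4 lower in primary oocytes (21.4% and 44.6%), and 1 was higher and 6 lower in secondary oocytes (18.6% and 49%). On plate 6, 2 of 7 were higher and 2 lower in transitioning oocytes (24.3% and 42%), and 1 was higher and 1 lower in primary oocytes (22.5% and 51.2%).

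Among partners of methylation on chromatin, Kdm1b stood out in level. KDM1B (LSD2) removes methyl groups from lysine 4 of histone H3 and is needed in mouse oocytes for methylation at maternally imprinted genes. Kdm1b had 2324 CPM in oocytes of the primordial and 2214 CPM in those of the primary stage, against 70.1 CPM in somatic cells, with log2 ratios of 5.05 (4.90 to 5.21) and 4.98 (4.82 to 5.14). All 12 of these oocytes had reads, between 604 and 2865 CPM in primordial and between 2157 and 2757 CPM in primary oocytes. The highest somatic cell had 759 CPM, above the lowest primordial oocyte. All 37 somatic cells of plate 1 carry plate code 1, as do only 1 of the 5 primordial and 1 of the 7 primary oocytes. The 1 transitioning oocyte, also of that code, had 712 CPM of Kdm1b, and no ratio within the code was formed. Zfp57, which maintains methylation at imprinted regions, was at 442 and 1652 CPM in the primordial and primary oocytes, against 58.6 CPM in somatic cells, with log2 ratios of 2.92 and 4.82. In primary oocytes 92.7% of its counts came from 1 cell, and without that cell the second ratio was 2.68 and that of primary over primordial oocytes was -0.23 in place of 1.90. The highest somatic cell had 3115 CPM of Zfp57, above every oocyte. Mat2b, the regulatory subunit of the enzyme that makes the methyl donor S-adenosylmethionine, had log2 ratios of 2.57 and 2.54. Cxxc1, which binds unmethylated CpG and is listed on every plate, was at least 2-fold higher in 4 of 8 comparisons, with log2 ratios from -0.43 to 1.91.

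Tet1 and Tet2, the other TET dioxygenase genes, were read on other plates than Tet3. On plate 4 Tet1 was at 13.1 CPM in transitioning oocytes and 390 CPM in somatic cells, a log2 ratio of -4.89 (-5.37 to -4.46), with reads in 4 of 15 oocytes and 11 of 16 somatic cells. On plate 1 Tet2 had 306 CPM in oocytes of the primordial and 68.6 CPM in those of the primary stage, against 178.6 CPM in somatic cells of all stages (log2 ratios 0.78 and -1.38). By stage the somatic level of Tet2 was 343 (primordial), 52.2 (transitioning), 265 (primary) and 16.7 CPM (secondary). Primordial oocytes were thus not above the somatic cells of their own stage. The log2 ratio of primary over primordial oocytes was -2.16 (-2.51 to -1.82) for Tet2. The glycosylase Tdg, which excises oxidized methylcytosine, had 1 count in 4 primary and 1.79 counts in 5 secondary oocytes of plate 5, against 119.5 CPM in 66 somatic cells, with log2 ratios of -5.10 (-10.4 to -2.61) and -4.14 (-7.03 to -2.12). Uhrf2, the paralogue of Uhrf1, was lower in the same oocytes, with 17.4 and 3.79 CPM against 58.8 CPM in somatic cells and log2 ratios of -1.75 (-3.39 to -0.51) and -3.96 (-9.27 to -1.46).

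Pcna, the replication clamp that binds DNMT1, was at 118.7 and 117.4 CPM in primordial and primary oocytes of plate 1, against 305 CPM in somatic cells of all stages, with log2 ratios of -1.36 and -1.38. By stage the somatic level of Pcna was 54.3 (primordial), 258.8 (transitioning), 259.4 (primary) and 649 CPM (secondary). Primordial oocytes thus lay above the somatic cells of their own stage, and primary oocytes below theirs. Usp7, a deubiquitinase known to bind UHRF1 and DNMT1 that was named here after its values were seen, was at 653 and 770 CPM in transitioning and primary oocytes of plate 6, against 339 CPM in somatic cells, with log2 ratios of 0.95 and 1.19. Kmt2b, a histone H3 lysine 4 methyltransferase, was lower there, at -1.84 and -1.36, and -1.23 and -0.75 without the somatic cell richest in it. On plate 5 the folate enzyme gene Shmt1 was lower in primary and secondary oocytes, with log2 ratios of -4.37 and -3.77. Gadd45a, a DNA damage response gene linked to demethylation, was at -2.26 and -2.73 there. Zbtb33, whose product (Kaiso) binds methylated CpG, was at -2.38 in transitioning oocytes of plate 4. Between secondary and primary oocytes of plate 5, 0 of 11 pathway genes were at least 2-fold higher and 4 lower (all genes: 9.91% and 19.5%), among them Hdac2, also named after its values were seen, at 181.7 CPM in secondary and 603 CPM in primary oocytes (-1.73, -2.22 to -1.26).

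**Figure D5:**
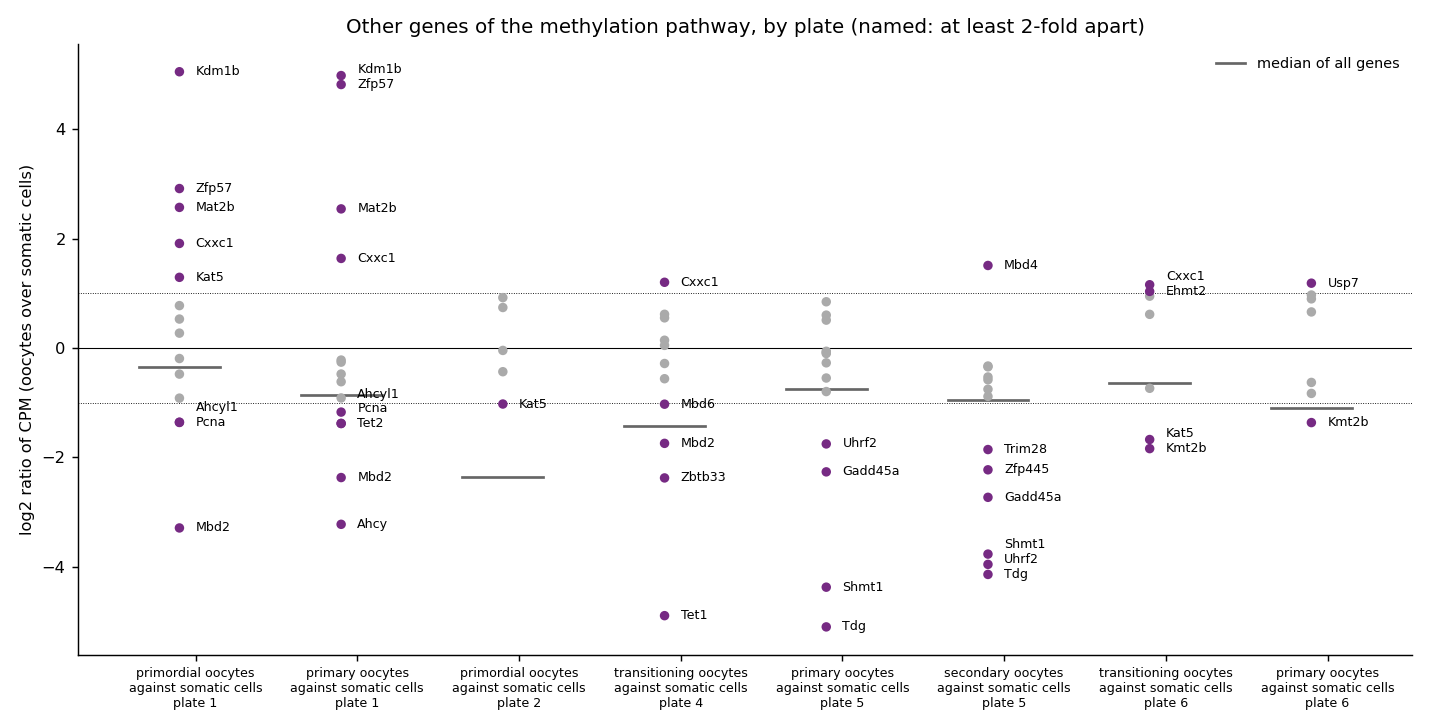
Log2 ratio of summed CPM, oocytes over somatic cells of the same plate, for the other genes of the methylation pathway that a plate lists, 1 of which is left out; each point is 1 gene, named genes are at least 2-fold apart and the dark line is the median of all genes. Kdm1b (5.05 and 4.98) is the highest on plate 1, Tet1 (-4.89) the lowest on plate 4 and Tdg (-5.10 and -4.14) the lowest on plate 5.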

How the data were processed

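The authors aligned single-cell SMART-Seq2 reads to GRCm38 and deposited unnormalized estimated counts for each gene (17.2% of values above 0 are not whole). The counting tool is not given in the sources used here. Per the submitters' processing notes, Seurat 4 was used. Per their methods, cells under 500 genes were removed and cells were filtered by marker scores. The deposited cell metadata hold a count of genes per cell and the fraction of reads on rRNA and other classes, along with plate, time and stage codes.

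Of 25149 rows, 27 named as dates (0.0743% of counts) were left out. Within a plate, counts of cells sharing stage and cell type were pooled and divided by the total over all genes listed on that plate (CPM). Groups were compared within a plate, with at least 3 oocytes of a stage, or 5 somatic cells for stages of somatic cells. A ratio counts as a call at 2-fold. Background shares cover genes with at least 5 CPM in 1 of the 2 groups. Intervals at 95% are exact Poisson for sums, exact binomial for shares of cells, and from the binomial split for ratios. A sum of 0 was set to 3 counts per group, and a ratio was not formed where that floor passed the other group. No p-value was computed, since no replicate is named. Python 3.11.15 with scipy 1.17.1, and edgeR 4.0.16 and DESeq2 1.42.0 for alternative scaling factors only, were used, and the ratios were tested on simulated data.

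Named are the 7 genes and, with values for the main ones, pathway genes past 2-fold in most of their comparisons. The values of 1 pathway gene, which the counts include, are not reported here. The genes with the most similar pattern to each member could not be sought, as no member has values in 6 groups of oocytes. The members and lists were chosen with earlier results of these data known. Alternatives for oocytes under 500 genes in the metadata and for single plate codes were added after seeing the data.

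The alternatives were totals over genes listed on every plate, the mean of single-cell CPM, TMM and median-of-ratios factors, leaving out the cell with the most counts or cells of conflicting labels, thinning to 12000 counts, and somatic cells of the same stage only.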

Additional observations from a re-analysis of the deposited data

Results flagged for a closer look

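In 12 groups of 4 to 10 cells with any spread, 3 cells lay far from the others of their group by Dixon's criterion. Its chance rate of about 1 in 20 holds for normally distributed values. These levels are skewed and hold zeros, so the 3 cells are not read against that rate. Primordial oocyte 12 of plate 2 had 131.3 CPM of Dnmt3b, and the next was at 48.3 CPM. This value is 11 counts in the smallest library of its group (83780.5 counts). Primary oocyte 1 of plate 1 had 3413 CPM of Dppa3, and the next was at 5318 CPM. That oocyte carries plate code 1 and has 801258 counts, and the other 6 of its group carry code 6. Somatic cell 1 of the transitioning follicles of plate 1 had 812 CPM of Dppa3, and the other 7 cells of its group had 0. With those zeros any value above 0 meets the criterion.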

How the results depend on the processing

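No paired analysis was possible because the replicate numbers only name single cells and no test was run. Of 24 ratios over 6 of the 7 genes (all but Dnmt3a), 17 were at least 2-fold apart, and all 17 kept their sign under every alternative that gave a value. Of these, 15 stayed past 2-fold throughout; the exceptions were Dnmt3b (-0.74 with TMM and -0.53 with median-of-ratios factors) and Uhrf1 between primary and transitioning somatic cells (0.85 to 1.74). In oocytes against somatic cells 9 of 9 ratios were past 2-fold, and 8 with either scaling factor. Between stages of oocytes 0 of 3 were, but 1 with TMM factors, 1 with median-of-ratios factors, 1 without cells of conflicting labels and 1 in cells of plate code 1 alone; each time this was Uhrf1 (1.34, 1.33, 2.19 and 2.61). Between stages of somatic cells 8 of 12 were, and 7 to 9 over the alternatives. In the same comparisons of oocytes with somatic cells, 66.3% to 84.7% of all genes were at least 2-fold apart in either direction. Between the stages these shares were 23% to 49.3% in oocytes and 61.6% to 77.1% in somatic cells. Another 6 ratios, none past 2-fold, changed sign under at least 1 alternative. Dnmt1 over somatic cells ranged from 4.56 to 5.87, Tet3 from 1.81 to 3.50, and Dppa3 from 3.98 to 4.79 in primordial and 4.27 to 5.23 in primary oocytes. Uhrf1 in primordial oocytes ranged from 1.01 (without cells of conflicting labels; 1.02 in plate code 1 alone) to 4.99 (primordial somatic cells only). The ratios of Dppa3 in secondary somatic cells, at the floor of 3 counts, ranged up to -2.04, -1.20 and -2.12 with cells thinned. The somatic zeros of Dnmt3l and Dppa3 are limited by depth.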
